A study of Mus musculus with 43 samples.

Results

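The genes described here are 9 members of the interleukin-1 system: the ligand genes Il1a, Il1b and Il18, the antagonist gene Il1rn, the receptor genes Il1r1, Il1r2 and Il1rap, and the processing genes Casp1 and Nlrp3. They were found by their symbols among 56941 gene identifiers, and each of the 9 matched 1 identifier. All 9 had counts in the 43 libraries of sorted mouse bone marrow cells, and 8 of them passed the filter on low counts in every comparison. Il1a did not pass it among the CD11b-positive cells.

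The transplanted mice were unconditioned wild-type CD45.1 animals that had been given 5 M (M, 1000000) whole marrow cells carrying the JAK2V617F mutation and CD45.2. JAK2V617F is an activating kinase mutation of human myeloproliferative neoplasms. Donor cells (CD45.2, n = 7) and host cells (CD45.1, n = 7) were sorted from the same 7 mice, 4 male and 3 female, and control cells (CD45.1, n = 8) from 8 untransplanted wild-type mice, 4 of each sex. Stroma-enriched cells came from the same animals, 7 transplanted and 8 control, by removal of cells with CD45 or with a lineage marker of T cells (CD4, CD8), B cells (B220), NK cells (NK1.1), myeloid cells (CD11b, Ly-6G/Ly-6C) or red cells (Ter119). These 5 groups were taken about 7 months after transplantation. CD45.1-positive CD11b-positive cells came from 3 transplanted and 3 control male mice other than these, 52 weeks after transplantation. A group transplanted with normal marrow is not among the samples, and the mutant cells and the transplantation as such cannot be told apart. The CD45-sorted and stroma libraries were made with different kits, so cell fraction and kit cannot be told apart either. The ages of the animals are not given in the sources used here.

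Interleukin-1 alpha and beta are inflammatory cytokines that bind the receptor IL-1R1, which then recruits the accessory protein encoded by Il1rap and signals through MyD88 to NF-kB. The receptor antagonist occupies IL-1R1 without signalling, and IL-1R2 is a decoy that binds ligand without signalling. The NLRP3 inflammasome activates caspase-1, which cleaves the precursors of interleukin-1 beta and interleukin-18 into their active forms. In marrow, neutrophils and monocytes are known sources of interleukin-1 beta, and mesenchymal stromal cells carry IL-1R1.

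Total counts ran from 15.71 to 19.68 M in the 22 CD45-sorted libraries, from 41.21 to 143.23 M in the 15 stroma libraries and from 32.48 to 44.85 M in the 6 CD11b libraries. Levels are given as the deposited TPM, a length-scaled unit that allows different genes to be compared. The stroma libraries held RNA of blood cells: the summed TPM of 12 mature neutrophil genes was 6596 to 61304 in transplanted and 10122 to 44406 in control stroma, against 114522 to 165162 in control marrow cells. Ptprc, which encodes CD45, had a median of 57.4 TPM in transplanted and 51.9 TPM in control stroma, and none of the 12 neutrophil genes was at 0 throughout either group. Erythroid genes summed to 15326 to 117698 TPM in transplanted and 2467 to 10709 TPM in control stroma. The transplanted stroma library of animal N032 stood apart, with the lowest sums of its group for LepR-stroma, osteoblast, fibroblast, endothelial and neutrophil genes. The transplanted CD11b library of animal N129 had the lowest neutrophil sum of the 6, 228661 TPM. The donor library of animal N204 is a donor library by its title and recipient-derived by another label. It was used as donor.

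Promoter windows with a motif match are shown for the members on which the results turn: Il1rn and Il1r1, the members that passed in host cells, and Il1b, the most abundant ligand. Each window runs from 250 bases before to 50 bases after a start site, read along the gene's strand, from the RefSeq promoter table of build GRCm38.p6, in which all 9 members matched with 13 windows. Capitals mark matches to 5 motifs, searched on both strands. The AP-1 motif was TGANTCA. For C/EBP factors the motif searched was TTGCNNAA. For the myeloid factor PU.1 the letters were GAGGAA. The core promoter element known as the TATA box was searched as TATAAA, and the NF-kB motif is named kappaB.
Il1rn, chr2:24336610-24336909, + strand: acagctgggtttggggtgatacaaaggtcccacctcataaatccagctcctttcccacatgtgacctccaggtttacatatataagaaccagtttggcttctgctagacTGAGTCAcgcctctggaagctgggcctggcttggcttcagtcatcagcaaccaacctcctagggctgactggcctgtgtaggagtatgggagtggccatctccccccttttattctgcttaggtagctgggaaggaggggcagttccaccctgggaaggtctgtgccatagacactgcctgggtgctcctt
Il1rn, chr2:24345121-24345420, + strand: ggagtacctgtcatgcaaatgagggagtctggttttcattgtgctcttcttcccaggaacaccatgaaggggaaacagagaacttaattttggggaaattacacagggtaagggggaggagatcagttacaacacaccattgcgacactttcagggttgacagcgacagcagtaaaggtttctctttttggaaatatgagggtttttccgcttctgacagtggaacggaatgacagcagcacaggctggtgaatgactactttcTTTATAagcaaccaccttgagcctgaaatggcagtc
Il1r1, chr1:40224830-40225129, + strand: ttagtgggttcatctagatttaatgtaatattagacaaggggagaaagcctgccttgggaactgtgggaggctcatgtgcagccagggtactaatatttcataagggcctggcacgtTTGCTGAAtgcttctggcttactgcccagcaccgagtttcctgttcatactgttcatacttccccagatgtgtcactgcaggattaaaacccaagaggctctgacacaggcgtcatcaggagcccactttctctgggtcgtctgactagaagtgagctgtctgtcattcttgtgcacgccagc
Il1r1, chr1:40266336-40266635, + strand: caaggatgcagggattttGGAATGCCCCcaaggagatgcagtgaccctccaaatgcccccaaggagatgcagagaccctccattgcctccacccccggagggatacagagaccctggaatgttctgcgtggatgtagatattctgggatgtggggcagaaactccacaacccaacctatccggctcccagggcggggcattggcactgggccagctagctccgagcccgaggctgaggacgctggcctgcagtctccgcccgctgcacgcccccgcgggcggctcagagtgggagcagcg
Il1b, chr2:129371090-129371389, - strand: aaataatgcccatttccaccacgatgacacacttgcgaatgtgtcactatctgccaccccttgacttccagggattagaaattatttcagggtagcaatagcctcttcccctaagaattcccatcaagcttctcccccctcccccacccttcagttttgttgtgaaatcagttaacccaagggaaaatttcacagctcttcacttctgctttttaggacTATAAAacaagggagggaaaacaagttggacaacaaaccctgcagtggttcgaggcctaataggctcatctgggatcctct
The first Il1rn window shown held an AP-1 match starting at position -141 from the start site, and the other one shown a TATA match at position 15. A further Il1rn window in the table, chr2:24345041-24345340, held no match to any of the 5 motifs and is not printed. The first Il1r1 window held a C/EBP match at -133 and the second a kappaB match at -232. The Il1b window held a TATA match at -31. Of the 32851 windows in the table, 7.81% held the AP-1 motif, 10.8% C/EBP, 28.3% PU.1, 13.6% TATA and 8.46% kappaB. The counts do not separate transcripts from the different start sites of Il1rn or of Il1r1.

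Across the 7 groups, Il1b, Il1r2, Il1rap, Il1a and Nlrp3 were most abundant in CD45-sorted marrow cells and Il1r1 and Il18 in stroma. Il1b ranged over 153 to 442 TPM in donor, 197 to 485 TPM in host and 235 to 618 TPM in control cells. It ranged over 118 to 307 TPM in transplanted and 236 to 334 TPM in control CD11b cells, and over 10.0 to 86.9 TPM in transplanted and 16.005 to 54.9 TPM in control stroma. Every stroma library thus lay below every CD45-sorted and CD11b library for Il1b, and the ranges of the other neighbouring groups overlapped. Il1a stayed below 3 TPM in all libraries, and the median of Il1b over Il1a within a library was 278 in donor, 238 in host and 287 in control cells.

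Il1r1 showed the opposite order. It averaged 22.4 ± 10.5 TPM in transplanted stroma and 19.1 ± 4.64 TPM in control stroma (SD, n = 7 and 8), against 2.64 ± 0.560 TPM in host, 1.99 ± 0.522 TPM in donor (n = 7 each) and 1.78 ± 0.219 TPM in control cells (n = 8). In CD11b cells it was 0.32 ± 0.0889 TPM in transplanted and 0.243 ± 0.134 TPM in control mice (n = 3 each). The 2 stroma groups overlapped each other, the 3 CD45-sorted groups overlapped each other, and the stroma, CD45-sorted and CD11b ranges did not overlap one another.

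The decoy receptor gene Il1r2 far exceeded Il1r1 in blood cells. The ratio of their TPM had a median of 205 in donor, 130 in host and 216 in control cells, against 10.1 in transplanted and 9.00 in control stroma. Il1r2 itself had medians of 302 TPM in donor, 296 TPM in host and 388 TPM in control cells, and only 52.8 TPM in transplanted and 76.7 TPM in control CD11b cells. The CD11b libraries had the highest neutrophil sums of the series, 228661 to 361826 TPM, and the lowest Il1r2 levels apart from stroma libraries. They differ from the other CD45-sorted libraries in sort, sex, time and counting tools, which cannot be told apart.

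Il1rap, the shared co-receptor gene, averaged 25.3 ± 3.17 TPM in donor, 22.04 ± 3.15 TPM in host (n = 7 each) and 21.0 ± 3.06 TPM in control cells (n = 8), and between 8.83 and 12.3 TPM in the stroma and CD11b groups. Casp1 was highest in CD11b cells, at 49.1 ± 6.33 TPM in transplanted and 47.0 ± 0.472 TPM in control mice (n = 3 each), and lowest in stroma, at 14.3 ± 3.40 TPM in transplanted (n = 7) and 12.6 ± 2.68 TPM in control mice (n = 8). Nlrp3 averaged 38.9 ± 10.1 TPM in donor, 46.5 ± 13.04 TPM in host and 62.3 ± 21.1 TPM in control cells, and 5.61 ± 4.70 TPM in transplanted and 4.58 ± 2.18 TPM in control stroma. Il18 averaged 10.9 ± 4.16 TPM in transplanted and 12.2 ± 3.10 TPM in control stroma, and its group means elsewhere were 2.49 to 3.90 TPM.

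**Figure D1:**
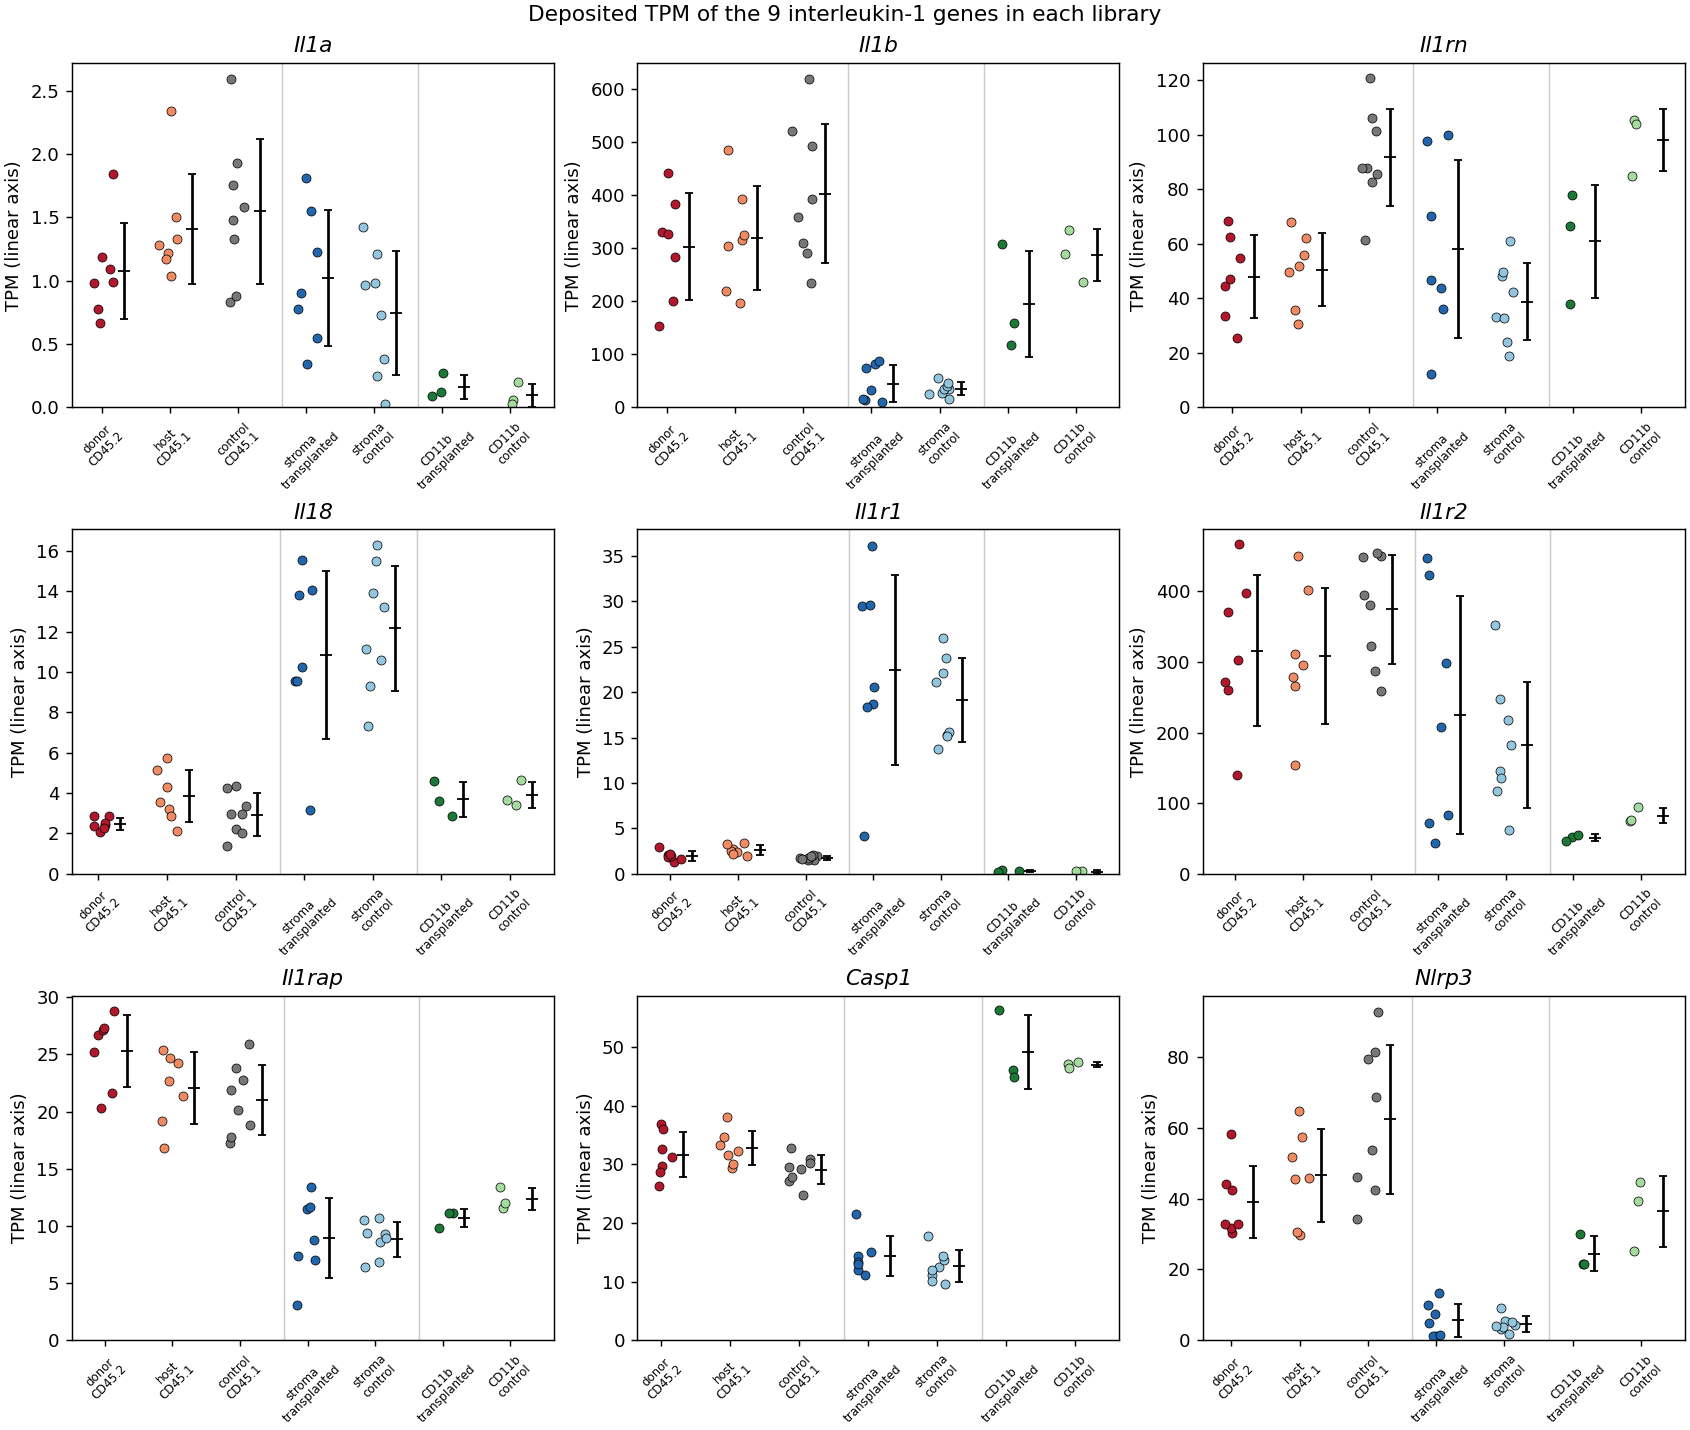
Deposited TPM of each of the 9 genes (vertical axes, linear) in each library, by group; points are libraries and bars are the mean ± SD. Il1r1 and Il18 are highest in stroma, and Il1b, Il1r2, Il1rap and Nlrp3 in donor, host and control marrow cells.

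Stroma was then compared with CD45.1 marrow cells of the same animals, which bears on which fraction holds the sources and which the receptors. The reported fits had sex as a covariate and left out the animal, which entered as a block among the alternatives only. In control mice all 9 members passed at an adjusted p below 0.05, where 89.6% of the 19824 genes tested passed. Il1r1 and Il18 were higher in stroma, as were 53.3% of genes, and the other 7 were lower, as were 36.3%. A share of 9 in 9 is near that background, so the sizes are described here. The median log2 fold change was -1.42 over the members and 0.53 over all genes tested.

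Il1r1 was 13.8 to 26.0 TPM in the 8 control stroma libraries (median 18.4) and 1.51 to 2.12 TPM in the 8 control marrow libraries (median 1.77). The ranges did not overlap, stroma was higher in 8 of 8 animals, and the log2 fold change was 3.13 ± 0.14 (SE; edgeR adjusted p = 2.52e-13). Il18 was 7.34 to 16.3 TPM in control stroma (median 12.2) and 1.36 to 4.36 TPM in control marrow (median 2.96). It was also higher in 8 of 8 animals without overlap, by a log2 of 1.64 ± 0.20 (edgeR adjusted p = 3.91e-07). In transplanted mice the same genes were higher in stroma than in host cells, Il1r1 by 2.97 ± 0.35 (edgeR adjusted p = 9.66e-07) and Il18 by 1.48 ± 0.30 (edgeR adjusted p = 2.68e-04), each in 7 of 7 animals.

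The inflammasome sensor gene Nlrp3 and Il1b had the largest deficits among the members in stroma. Nlrp3 was 1.66 to 9.10 TPM in control stroma (median 4.16) and 34.4 to 92.6 TPM in control marrow (median 61.2) (log2 -4.19 ± 0.27, edgeR adjusted p = 3.48e-11). Il1b was 16.005 to 54.9 TPM in control stroma (median 35.1) and 235 to 618 TPM in control marrow (median 376) (log2 -3.70 ± 0.27, edgeR adjusted p = 2.06e-10). Both were lower in stroma in 8 of 8 animals with no overlap between the fractions. Il1rap at -1.72, Casp1 at -1.42 and Il1rn at -1.34 were lower in 8 of 8 animals without overlap, and Il1a at -1.48 and Il1r2 at -1.33 in 7 of 8 with overlapping TPM. The 7 members thus fell short in stroma by unequal amounts, from 1.33 to 4.19 on the log2 scale.

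In the transplanted mice 7 of 9 members passed between stroma and host cells, where 85% of 19451 genes passed. Beside Il1r1 and Il18, higher like 51.1% of genes, 5 members were lower like 34%: Nlrp3 at -3.51 ± 0.51, Il1b at -2.85 ± 0.50, Il1rap at -1.64 ± 0.26, Casp1 at -1.25 ± 0.12 and Il1a at -0.76 ± 0.30. The first 4 were lower in 7 of 7 animals. Il1a was lower in 5 of 7, with an edgeR adjusted p of 0.0257. It did not pass in 9 of 24 alternatives, and over all 24 its log2 fold change ran from -0.91 to -0.28. Among the 9 were edgeR fits without host library N014 (-0.65, adjusted p = 0.0595) or without transplanted stroma library N269 (-0.63, 0.0583), N203 (-0.66, 0.0645) or N279 (-0.70, 0.053). Il1rn at 0.24 ± 0.35 (edgeR adjusted p = 0.54) and Il1r2 at -0.60 ± 0.47 (0.243) did not pass. Without stroma library N032 the same number of members, 7, passed.

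The 12 mature neutrophil genes were all lower in control stroma than in control marrow (median log2 -2.71), and 11 of 12 were lower in transplanted stroma than in host cells (median -2.01). All 10 LepR-stroma genes were higher in control stroma (median 8.06), and 8 of 10 in transplanted stroma (median 6.72), none of them at 0 in every stroma library. The part of these cell contents in the members' differences was not tested. In bulk samples, fewer cells of a type and less RNA per cell cannot be told apart.

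**Figure D2:**
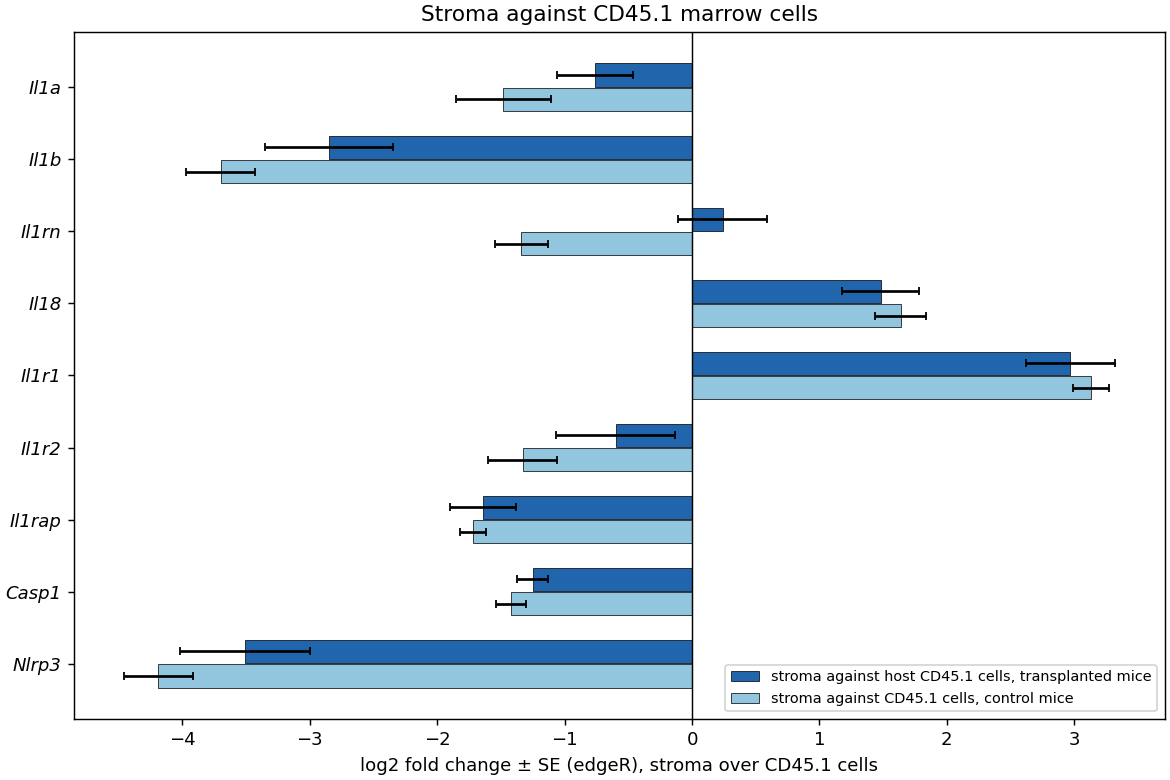
Log2 fold change ± SE (edgeR) of each member, stroma over CD45.1 marrow cells, in transplanted mice (dark bars, n = 7) and control mice (light bars, n = 8). Il1r1 and Il18 lie above 0 in both and 6 others below 0 in both, while Il1rn is at 0.24 in transplanted and -1.34 in control mice.

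Host cells were compared with control cells to see what differs in wild-type blood cells living beside JAK2V617F cells, and donor cells with the same 8 controls. In host cells 2 of 9 members passed, Il1rn lower and Il1r1 higher, where 16.4% of 14073 genes passed, 7.82% lower and 8.61% higher. In donor cells 2 of 9 passed, Il1rn and Nlrp3, both lower, where 45.7% of 13906 genes passed and 23% were lower. The share of members that passed was near the background in host cells and below it in donor cells. The median log2 fold change of the members was -0.07 in host and -0.35 in donor cells, against 0.01 and 0 over all genes. The comparisons share their controls and are set side by side only.

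Il1rn, the antagonist gene, was 30.7 to 68.0 TPM in the 7 host libraries (median 51.9), 25.4 to 68.4 TPM in the 7 donor libraries (median 47.2) and 61.4 to 120.9 TPM in the 8 controls (median 87.9). Of the 7 host libraries 5 lay below every control, as did 5 of the 7 donor libraries, and none of either group exceeded the control median. The log2 fold change was -0.90 ± 0.17 in host cells (SE; edgeR adjusted p = 0.00238) and -1.01 ± 0.19 in donor cells (edgeR adjusted p = 4.31e-04). In host cells of males alone it was -0.96 and of females alone -0.84, with edgeR adjusted p of 0.0585 and 0.0625 in these smaller groups. Without donor library N204 the donor value was -1.02 (edgeR adjusted p = 0.00112).

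Il1b, in contrast, did not pass in either comparison. Its medians were 316 TPM in host, 327 TPM in donor and 376 TPM in control cells, and 2 of 7 host and 2 of 7 donor libraries lay below all controls. The log2 fold change was -0.35 ± 0.23 in host cells (edgeR adjusted p = 0.31) and -0.43 ± 0.25 in donor cells (edgeR adjusted p = 0.168). Without the filter on low counts the donor value was -0.42 and passed (edgeR adjusted p = 0.041). The ratio of Il1b to Il1rn within a library had a median of 5.87 in host cells (3.95 to 8.84), 6.46 in donor cells (3.45 to 8.45) and 4.55 in control cells (2.68 to 5.15). These ranges overlapped, and the ratio was not tested.

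Il1a and Il18, both low in marrow cells, did not pass. Il1a was at -0.07 ± 0.20 in host and -0.46 ± 0.23 in donor cells (edgeR adjusted p = 0.845 and 0.105). Without donor library N014 the donor value was -0.62 and passed (edgeR adjusted p = 0.0303). Il18 was at 0.07 ± 0.18 in host and -0.35 ± 0.18 in donor cells (edgeR adjusted p = 0.826 and 0.112), and without control library N277 the donor value was -0.43 (0.0455).

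The signalling receptor gene Il1r1 was 1.95 to 3.39 TPM in host cells (median 2.53), 1.33 to 2.98 TPM in donor cells (median 1.93) and 1.51 to 2.12 TPM in controls (median 1.77). Of the host libraries 6 of 7 lay above every control, while donor libraries lay on both sides of the control range. The log2 fold change was 0.46 ± 0.11 in host cells (edgeR adjusted p = 0.00954) and 0.10 ± 0.12 in donor cells (edgeR adjusted p = 0.53). Blocked on the euthanasia day (5 same-day pairs), the host value was again 0.46 and did not pass (edgeR adjusted p = 0.069), and it did not pass in males alone (0.59, 0.0693) or females alone (0.29, 0.32).

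The decoy gene Il1r2 was at -0.32 ± 0.21 in host and -0.26 ± 0.23 in donor cells (edgeR adjusted p = 0.313 and 0.382). Il1rap was 16.8 to 25.4 TPM in host cells (median 22.7), 20.3 to 28.8 TPM in donor cells (median 26.7) and 17.3 to 25.9 TPM in controls (median 21.0). The host value was 0.04 ± 0.10 (edgeR adjusted p = 0.822). In donor cells 4 of 7 libraries lay above every control and the log2 fold change was 0.23 ± 0.10 (edgeR adjusted p = 0.0609). With the day block it was 0.28 and passed (edgeR adjusted p = 0.00149). It also passed without donor library N005 (0.31, 0.00252), control library N277 (0.26, 0.0498) or control library N208 (0.27, 0.0362).

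Of the processing genes, Nlrp3 was 29.7 to 64.8 TPM in host cells (median 45.8), 30.2 to 58.3 TPM in donor cells (median 32.9) and 34.4 to 92.6 TPM in controls (median 61.2). In donor cells 4 of 7 libraries lay below all controls and none above the control median (log2 -0.57 ± 0.16, edgeR adjusted p = 0.00879). It was -0.52 in males alone and -0.62 in females alone (edgeR adjusted p = 0.083 and 0.0601), and -0.61 without library N204 (0.00955). In host cells it was -0.37 ± 0.15 (edgeR adjusted p = 0.102), and without host library N203 -0.46 (0.042). Casp1 did not pass, at 0.09 ± 0.07 in host and 0.04 ± 0.08 in donor cells (edgeR adjusted p = 0.405 and 0.715).

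Cell-type markers moved in the same comparisons. In host cells 6 of 10 monocyte and 8 of 9 tested macrophage genes were higher and 10 of 10 B-cell genes lower, while none of 12 mature neutrophil genes passed (edgeR; median log2 -0.35). Their summed TPM ran from 77120 to 191569 in host, 71723 to 175461 in donor and 114522 to 165162 in control cells. The macrophage sum was 94.1 to 186 TPM in host, 62.0 to 132 TPM in donor and 61.8 to 75.4 TPM in control cells, with Marco at 0 in all 3 groups. In donor cells 10 of 10 B-cell genes were lower, and of 11 T- and NK-cell genes 10 were lower and 1 higher. Of 10 monocyte genes 4 were higher and 1 lower, and of 8 tested macrophage genes 4 were higher. Of 10 erythroid genes 3 were higher and 4 lower, and 0 of 12 neutrophil genes passed (median -0.20). The part of these contents in the values of Il1rn, Il1r1 and Nlrp3 was not tested.

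Donor and host cells of the same 7 mice were compared next. None of the 9 members passed in the fit without the animal, where 14.1% of 13662 genes passed (9.94% lower). Of the members 2 had an unadjusted p below 0.05, and 0 passed by DESeq2 or limma-voom. With the animal as a block 3 of 9 members passed, a share near the 33.7% of all 13662 genes that passed in that fit (15.2% higher and 18.5% lower). Il1r1 was lower in donor than in host cells in 7 of 7 animals, at -0.36 ± 0.14 without the block (edgeR adjusted p = 0.0891) and -0.37 with it (0.0045). Il1rap was higher in donor cells in 6 of 7 animals, at 0.20 ± 0.12 without the block (edgeR adjusted p = 0.323) and 0.20 with it (0.0127). Nlrp3 was lower in donor cells by TPM in 4 of 7 animals, at -0.19 ± 0.16 without the block (edgeR adjusted p = 0.509) and -0.20 with it (0.00746). Il1rn at -0.10 ± 0.23 and Il1b at -0.06 ± 0.26 did not pass in either fit. Without donor library N279 Il1r1 passed in the unblocked fit too (-0.45, edgeR adjusted p = 0.0351). In the same comparison 6 of 9 tested macrophage, 10 of 10 B-cell, 10 of 11 T- and NK-cell and 2 of 10 monocyte genes were lower in donor cells, and 0 of 12 neutrophil genes passed (edgeR; median log2 0.16). The part of these contents in the members' values was not tested.

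**Figure D3:**
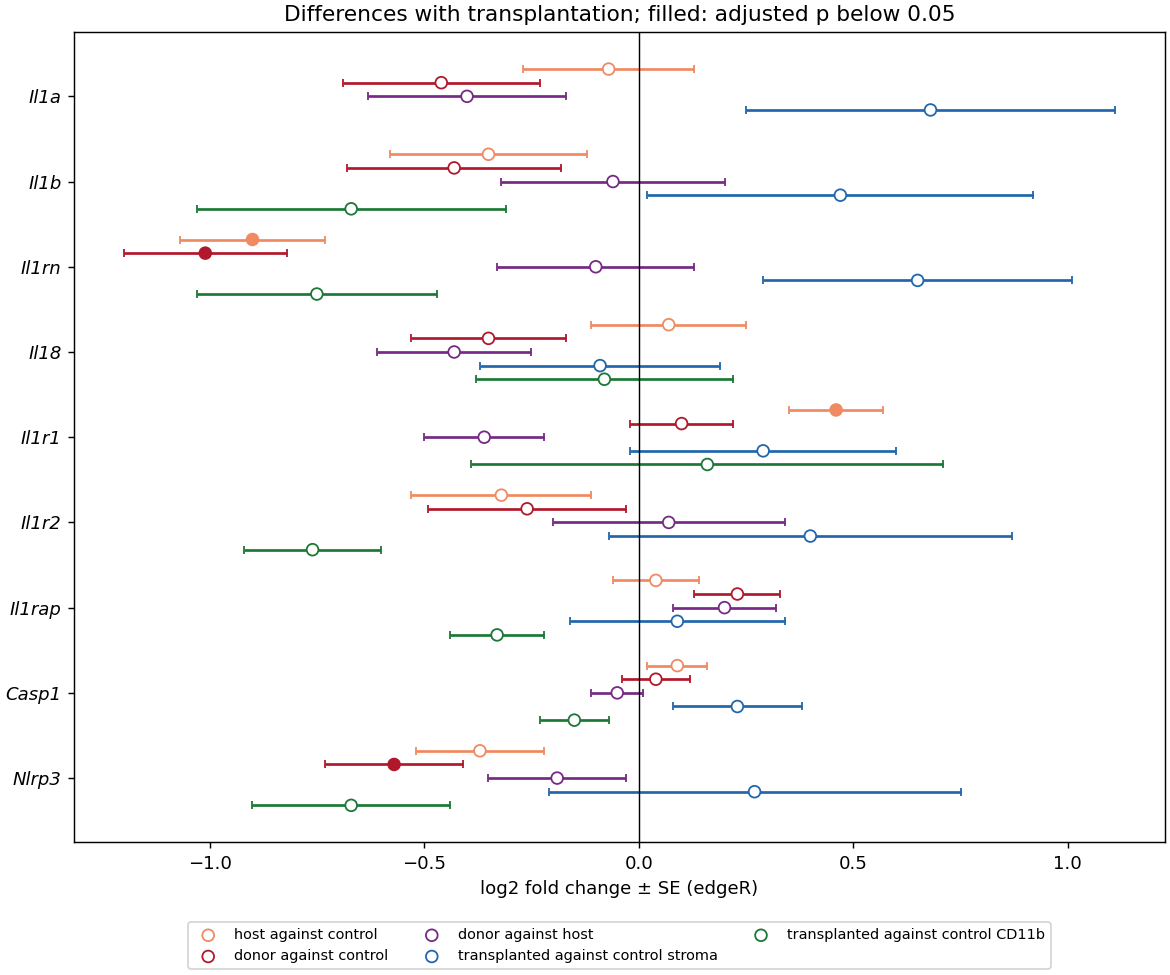
Log2 fold change ± SE (edgeR) of each member in 5 comparisons; filled points passed at an adjusted p below 0.05. Il1rn lies below 0 in host, donor and CD11b cells and above 0 in stroma, and Il1r1 is filled in host cells alone; Il1a was not tested in CD11b cells.

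In stroma the comparison of transplanted with control mice asked whether the receptors and ligands differ in the supporting cells. None of 9 members passed, where 1.49% of 26191 genes passed (1.03% lower). None of the 9 had an unadjusted p below 0.05, and 0 passed by DESeq2 or limma-voom. The median log2 fold change of the members was 0.29, against 0.04 over all genes.

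Il1rn was 12.1 to 100.0 TPM in transplanted stroma (median 46.8) and 18.7 to 61.2 TPM in control stroma (median 37.8). Of the 7 transplanted libraries 3 lay above every control and 1, N032, below every control, and the log2 fold change was 0.65 ± 0.36 (edgeR adjusted p = 0.757). Without N032 it was 0.80 (edgeR adjusted p = 0.188). Il1r1 was 4.17 to 36.1 TPM in transplanted stroma (median 20.6) and 13.8 to 26.0 TPM in control stroma (median 18.4). Of these 3 transplanted libraries lay above and N032 alone below all controls. The log2 fold change was 0.29 ± 0.31 (edgeR adjusted p = 0.981), or 0.46 without N032 (0.301). The transplanted group was more spread than the controls for both genes, with an SD of 32.7 against 14.2 TPM for Il1rn and of 10.5 against 4.64 TPM for Il1r1.

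Il1b was 10.0 to 86.9 TPM in transplanted stroma (median 32.3) and 16.005 to 54.9 TPM in control stroma (median 35.1). It split to both sides, with 3 of 7 transplanted libraries above and 3 below all controls, and the log2 fold change was 0.47 ± 0.45 (edgeR adjusted p = 0.969). The other log2 fold changes in stroma were 0.68 ± 0.43 for Il1a, 0.40 ± 0.47 for Il1r2, 0.27 ± 0.48 for Nlrp3, 0.23 ± 0.15 for Casp1, 0.09 ± 0.25 for Il1rap and -0.09 ± 0.28 for Il18. In simulated data of this design, 53% of genes changed by a log2 of 1 and 89% of those changed by 2 were recovered. The simulated data held no shifts shared by many genes of a library. Of the marker lists, 7 of 10 erythroid and 3 of 11 tested macrophage genes were higher in transplanted stroma, and 0 of 12 neutrophil genes passed (edgeR).

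The difference in direction between the fractions was tested for each member as an interaction, where 2.69% of 22991 genes passed, 1.08% higher and 1.61% lower. Il1rn passed alone among the 9: its transplant difference was 1.57 ± 0.41 higher on the log2 scale in stroma than in CD45.1 cells (edgeR adjusted p = 0.0313). That fit left out that the fractions share animals. With limma-voom and the animal as a random block the value was 1.43 and did not pass (adjusted p = 0.124). It also did not pass in edgeR without transplanted stroma library N005 (1.37, adjusted p = 0.0653), N014 (1.48, 0.0573) or N204 (1.43, 0.0546). The others ran from -0.15 for Il18 and Il1r1 to 0.85 for Il1b, with edgeR adjusted p of 0.56 to 1.

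In CD11b-positive host-type cells, 3 against 3, none of the 8 members tested passed, nor did any of 15257 genes, 0%. At an unadjusted p below 0.05 there were 4 members and 2506 genes. DESeq2 called 291 genes, among them Il1r2, and limma-voom 0. Il1r2 was 46.0, 52.8 and 55.2 TPM in transplanted and 75.1, 76.7 and 94.3 TPM in control mice. The groups did not overlap, and the log2 fold change was -0.76 ± 0.16 (edgeR adjusted p = 0.27, DESeq2 adjusted p = 0.00204).

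Il1rn was 38.0, 66.7 and 78.1 TPM in transplanted and 84.9, 103.9 and 105.6 TPM in control CD11b cells, again without overlap (log2 -0.75 ± 0.28, edgeR adjusted p = 0.273). Without transplanted library N129, its lowest value, the log2 fold change was -0.44. Il1rap was 9.83, 11.1 and 11.2 TPM in transplanted and 11.5, 12.04 and 13.4 TPM in control cells (log2 -0.33 ± 0.11, edgeR adjusted p = 0.27). Its groups did not overlap either, by a narrow margin. The share of all genes without overlap was not counted, and with 3 against 3 samples unchanged genes can separate too. The lack of overlap of Il1r2, Il1rn and Il1rap is therefore not read as a difference. Nlrp3 was 21.6, 21.6 and 30.1 TPM in transplanted and 25.3, 39.3 and 44.6 TPM in control cells (log2 -0.67 ± 0.23, edgeR adjusted p = 0.272), and Il1b 118, 159 and 307 TPM against 236, 289 and 334 TPM (log2 -0.67 ± 0.36, edgeR adjusted p = 0.367). Both of these overlapped between the groups. For Il1b the log2 fold change was -1.29 without transplanted library N116, its highest value in that group, and -0.41 and -0.45 without N187 or N129. With 3 against 3 samples, 59% of genes changed by a log2 of 1 were recovered in simulated data. Here too the simulated data held no shifts shared by many genes of a library.

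The summed markers of cell types were set side by side in the CD11b libraries too. The monocyte sum was 2870, 3026 and 3695 TPM in transplanted and 2502, 2521 and 2575 TPM in control mice, the macrophage sum 99.3, 224 and 268.8 TPM against 73.6, 74.2 and 79.0 TPM, and the T- and NK-cell sum 171, 180 and 305 TPM against 134, 134 and 143 TPM. Marco was at 0 in all 6. Most of the T- and NK-cell sum in transplanted CD11b cells was Nkg7, at 158 to 232 TPM. That sum is therefore not read as a measure of T- or NK-cell content. Gene by gene, the 11 genes of the list had a median log2 fold change of 1.34, against 0.02 over all genes. The neutrophil sum was 228661, 323281 and 333593 TPM in transplanted and 349797, 357098 and 361826 TPM in control mice. None of these sums overlapped between the groups, and their part in the members' values was not tested.

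Within each fraction, members were set against the summed TPM of the 12 neutrophil genes, on log2 scales with 1 added to the members' TPM, in 18 relations over 15 libraries each. A few abundant genes carry most of that sum. In control stroma, with a median sum of 25933 TPM, S100a8, S100a9 and Ngp had medians of 11048, 4878 and 4700 TPM. The sum is read as the level of these genes and not as a count of mature neutrophils. In stroma, Il1r2 followed that sum most closely (Pearson r = 0.982, Spearman rho = 0.979, permutation p of both 1e-05, the smallest that the permutations can give, adjusted 4.5e-05 and 6e-05). Il1b (r = 0.94, rho = 0.95) and Nlrp3 (r = 0.933, rho = 0.968) followed it likewise, with the same p. All 3 held within transplanted stroma (r = 0.986, 0.951 and 0.926), within control stroma (0.981, 0.931 and 0.963) and without the 2 farthest libraries (0.982, 0.92 and 0.926). Il1rap was at r = 0.84 (rho = 0.818) and Il1rn at r = 0.782 (rho = 0.732, adjusted permutation p = 0.00172 and 0.00645). For Il1rn r was 0.893 within transplanted and 0.655 within control stroma, and 0.723 without the 2 farthest libraries.

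The relation of Il1r1 and Il18 to the neutrophil sum in stroma did not pass and differed in sign between the groups. Il1r1 had r = 0.426 and rho = 0.154 (adjusted permutation p = 0.149 and 0.701), with r = 0.61 within transplanted and -0.36 within control stroma, and r was -0.142 without the 2 farthest libraries. Il18 had r = 0.357 and rho = 0.129 (adjusted permutation p = 0.232 and 0.732), with r = 0.653 within transplanted and -0.557 within control stroma, and -0.382 without the 2 farthest libraries. Il1a (r = 0.605, rho = 0.714) and Casp1 (r = 0.531, rho = 0.639) lay between, with adjusted permutation p of 0.027 and 0.0568 for r.

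**Figure D4:**
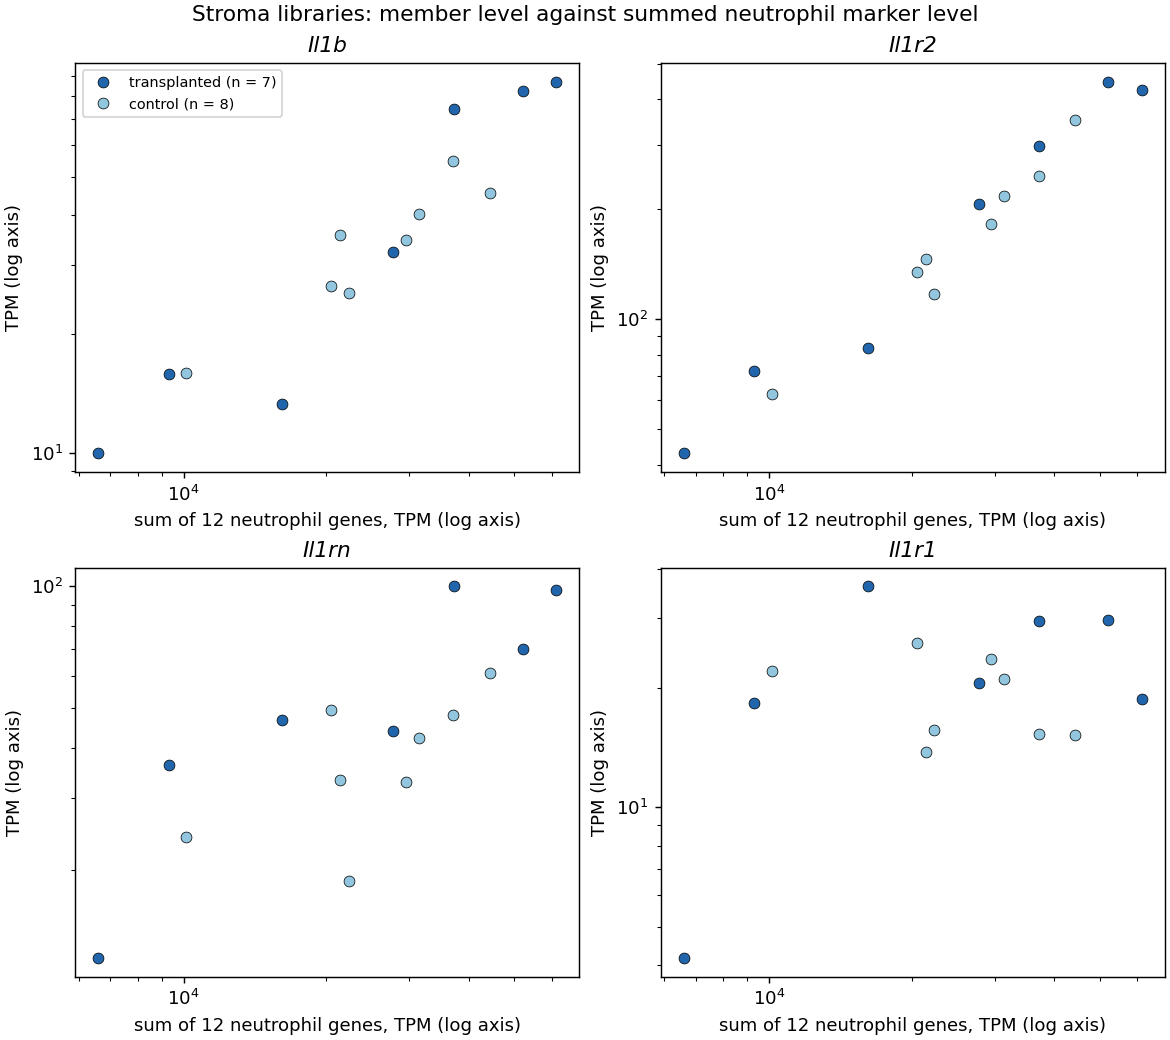
TPM of 4 members (vertical, log axes) against the summed TPM of 12 neutrophil genes (horizontal, log axes) in the 7 transplanted (dark) and 8 control (light) stroma libraries. Il1b and Il1r2 rise along the neutrophil sum, Il1rn less closely, and Il1r1 has 1 low library, at 4.17 TPM, at the lowest neutrophil sum and no such course among the rest.

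In CD45.1 marrow cells Il1r2 (r = 0.895, rho = 0.746), Il1b (r = 0.774, rho = 0.754), Il1rn (r = 0.731, rho = 0.646) and Nlrp3 (r = 0.624, rho = 0.579) also rose with the neutrophil sum, with adjusted permutation p for r of 4.5e-05, 0.00172, 0.00409 and 0.0223. Il1r1 ran the other way (r = -0.722, rho = -0.618, adjusted permutation p = 0.00416 and 0.025), as did Casp1 (r = -0.62, rho = -0.643, 0.0223 and 0.02). Within host cells r was -0.758 for Il1r1, -0.697 for Casp1, 0.698 for Il1rn, 0.806 for Nlrp3, 0.847 for Il1b and 0.912 for Il1r2. Within control cells r was -0.107, -0.114, 0.502, 0.26, 0.678 and 0.807 in that order. Without the 2 farthest libraries r was -0.652 for Il1r1 and 0.809 for Il1rn. The relations of Il1r1 and Casp1 were thus near 0 among controls alone, and that of Nlrp3 was weak there. The permutations ran over host and control libraries together.

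By likeness of expression, the 5 genes closest to Il1b over the 22 donor, host and control libraries, among 10143 genes, were Tpd52 (r = 0.943), G0s2 (0.93), Clec4d (0.926), Rnf11 (0.925) and Ndel1 (0.922). Of the members, Il1r2 was ranked 51 (r = 0.86), Il1rn 351 (0.742) and Nlrp3 428 (0.723), while Casp1 was at r = 0.033 and Il1r1 at -0.416. Over the 15 stroma libraries and 12232 genes, Il1r1 was most like Cyfip1 (r = 0.983), Pros1 (0.976), Casp12 (0.973), Tpm4 (0.973) and Serinc1 (0.97). Il18 was ranked 778 (r = 0.879), and Il1b only 5880 (0.375). These values describe shared variation over libraries that also share their cell content.

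Of the wider interleukin-1 family, Il33, an alarmin of stromal and endothelial cells, had a median of 51.7 TPM in transplanted and 49.7 TPM in control stroma, against 0.14 TPM in host, 0 TPM in donor and 0.19 TPM in control cells. Il36g was the other abundant ligand gene, with medians of 91.2 TPM in donor, 79.5 TPM in host and 98.2 TPM in control cells and of 41.1 TPM in transplanted and 31.4 TPM in control stroma. Its median in control CD11b cells was above these, at 152 TPM (145 to 181 TPM). Of the 7 other ligand-side genes of the family 2 could be tested in host and donor cells and none passed. Among the 5 other receptors tested, Il18r1, which encodes the interleukin-18 receptor, had a log2 fold change of -0.87 ± 0.16 in donor cells and passed (edgeR adjusted p = 3.09e-04). In that comparison 10 of 11 T- and NK-cell genes were lower and 1 higher (median log2 -3.80). Their part in the Il18r1 value was not tested. In host cells Il18r1 was at -0.31 ± 0.10 (edgeR adjusted p = 0.0372) but did not pass in 14 of 25 alternatives. Among these were the day block (-0.22, 0.171), males alone (-0.36, 0.162), females alone (-0.26, 0.36) and leaving out host library N279, N014, N032, N269 or N005 or control library N208, N288, N051 or N283 (0.0514 to 0.0782). Il1rl2, the receptor gene for the IL-36 cytokines, was higher in donor cells (0.70 ± 0.11, edgeR adjusted p = 5.22e-05), and the other receptors did not pass.

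Of 20 inflammasome and release genes 3 were higher and 3 lower in host cells, and 4 higher and 6 lower in donor cells (median log2 0.10 in host and -0.06 in donor cells, against 0.01 and 0 over all genes). Over all genes 16.4% passed in host cells and 45.7% in donor cells, so the counts of this list and of the next ones are read against those shares. Here 6 of 20 in host cells and 10 of 20 in donor cells passed, in donor cells near the share of all genes. Mefv, which encodes pyrin, another inflammasome sensor, had medians of 60.6 TPM in host, 55.9 TPM in donor and 39.0 TPM in control cells, and rose by 0.58 ± 0.06 in host cells and 0.57 ± 0.07 in donor cells (edgeR adjusted p = 2.01e-05 and 2.11e-06). Pycard, the adaptor ASC that links sensors to caspase-1, rose in host cells (0.48 ± 0.09, edgeR adjusted p = 0.00181). Txnip, a redox protein that binds NLRP3, fell by 0.41 ± 0.07 in host cells and by 0.64 ± 0.07 in donor cells (edgeR adjusted p = 0.00189 and 7.72e-07). Panx1, a channel through which cells release ATP, fell by 0.66 ± 0.09 in donor cells (edgeR adjusted p = 9.21e-06). In stroma none of these 20 genes passed between transplanted and control mice (median 0.18, against 0.04 over all genes). Between stroma and CD45.1 cells 17 of the 20 were lower in control mice and 16 in transplanted mice, with a median of -1.71 in each. Over all genes tested 36.3% were lower in control and 34% in transplanted mice, with medians of 0.53 and 0.52.

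Of 22 genes of receptor signalling 1 was higher and 2 lower in host cells, and 3 higher and 8 lower in donor cells, with medians of -0.04 and -0.14. These shares, 3 of 22 and 11 of 22, were near those of all genes, 16.4% and 45.7%. Map3k8, a kinase of the inflammatory MAP kinase branch, fell by 0.83 ± 0.09 and Peli1, a ubiquitin ligase of the receptor complex, by 0.40 ± 0.05 in donor cells (edgeR adjusted p = 1.56e-06 and 1.55e-06). In transplanted stroma 1 gene passed, Chuk, which encodes the IKK-alpha kinase, at -0.62 ± 0.13 (edgeR adjusted p = 0.0212). It did not pass in 8 of 25 alternatives: the stricter filter (-0.57, 0.0583), the day block (-0.57, 0.0913), males alone (-0.80, 0.2), females alone (-0.48, 0.798), and without control stroma library N093, N051 or N002 or transplanted stroma library N203 (0.052 to 0.0592). Of these 22 genes 18 were lower in stroma than in CD45.1 cells in control mice and 18 in transplanted mice. Of all genes tested, 36.3% were lower there in control and 34% in transplanted mice.

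Of 30 genes known to respond to interleukin-1, 22 were tested in host cells and 2 were higher and 1 lower, and 24 were tested in donor cells and 4 were higher and 6 lower. These shares too were near the 16.4% and 45.7% of all genes. In transplanted stroma 28 were tested and Saa3 alone passed, higher. Saa3, an acute-phase amyloid gene, was 31.0 to 100.6 TPM in host, 23.1 to 112.1 TPM in donor and 3.94 to 9.47 TPM in control cells. It was 5.56 to 72.9 TPM in transplanted and 0.86 to 4.48 TPM in control stroma, without overlap (log2 2.77 ± 0.44, edgeR adjusted p = 0.00278), and did not pass in males alone (0.0715) or females alone (0.318). In CD11b cells it was 12.7 to 1362 TPM in transplanted and 0.31 to 0.73 TPM in control mice. There it did not pass (log2 9.25 ± 2.17, edgeR adjusted p = 0.27). Between control stroma and control marrow 14 of 29 tested responders were higher and 12 lower, where 53.3% and 36.3% of all genes were. Levels follow for Cxcl1, Ccl2 and Il6, chosen after their values were seen. These genes did not pass between transplanted and control stroma. The neutrophil chemokine gene Cxcl1 had a median of 106 TPM in transplanted and 111 TPM in control stroma. The monocyte chemokine gene Ccl2 had 54.3 TPM in transplanted and 52.04 TPM in control stroma, and the cytokine gene Il6 had 23.1 TPM in transplanted and 24.03 TPM in control stroma. Il6 was not particular to stroma, with a median of 27.4 TPM in host cells. It was lower in control stroma than in control marrow (log2 -0.72 ± 0.20, edgeR adjusted p = 0.00291).

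The members were also examined by sex and by engraftment. None of the 9 passed in the interaction of sex and transplantation in CD45.1 cells or in stroma, where 0% of 14073 and 0% of 26191 genes passed in edgeR, and none had an unadjusted p below 0.05. The labels' chimerism value, printed there without a unit, was between 0.63 and 5.99 in the 7 mice. No member passed for a slope on log2 chimerism in host, donor or stroma libraries, where 0% of 12600, 12189 and 20516 genes passed. In transplanted stroma 3 members had an unadjusted p below 0.05. Il1b was 0.91 ± 0.27 higher per doubling of chimerism, Nlrp3 0.90 ± 0.30 and Il1r2 0.87 ± 0.29 (edgeR adjusted p of 1 for each), and the 12 neutrophil genes had a median slope of 0.85 in the same libraries.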

How the data were processed

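Per the labels, RNA was measured in 43 libraries of sorted mouse marrow cells. CD45-sorted cells were made into directional poly-A libraries, and stroma into low-input libraries. The tools named per the submitters' processing notes are the aligner STAR 2.7.3a, with build GRCm39, and featureCounts of Subread 1.6.2, while the CD11b notes name RSEM 1.3.3 as well. The deposited counts are whole numbers per gene without normalization. The deposited TPM add up to 1000000 in each library apart from rounding. Their software, the annotation, the strand setting and how both stroma runs were merged are not given in the sources used here. Another deposited table of 37 columns was identical to columns already used and was left out. Symbols from the reference gene table matched 51948 of 56941 identifiers, and 131 shared a symbol. All 43 libraries matched their labelled sex.

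Tests were run on the counts with edgeR 4.0.16 in R 4.3.3: filterByExpr, TMM scaling and the quasi-likelihood test. Sex was a covariate, except for CD11b cells, which all came from males, and only libraries of the groups in question entered a fit. Benjamini-Hochberg adjustment covered every gene tested, with a threshold of 0.05. Depth limits precision for low genes such as Il1a, with 3 to 131 counts per library. Marker sums and correlations used TPM, with two-sided tests of 100000 permutations in numpy 2.4.6.

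Named genes were all 9 members, up to 3 genes with the smallest p among those that passed in each other interleukin-1 list, and the 5 genes most like Il1b and Il1r1 (log2 CPM, prior count 2, mean of at least 2). Cxcl1, Ccl2 and Il6 fall outside that rule and were chosen after their values were seen. The members, the 8 pathway lists and 12 marker lists were chosen with earlier results of these data known. Alternatives were DESeq2 1.42.0, limma-voom and limma-trend of limma 3.58.1 on TPM plus 1 or 0.1, RLE scaling, no filter or CPM of at least 1, blocks, single sexes and leaving out each library. For the interactions and slopes, RLE scaling, and for the interaction of fraction and transplantation also the random animal block and the omission of stroma libraries, were chosen after seeing the data. Same-animal pairs were donor with host libraries (r of deviations 0.174 to 0.6) and stroma with CD45.1 libraries (-0.024 to 0.143). Host and control mice with the same day of euthanasia in the labels formed 5 pairs (r of 0.238 to 0.292 for host, 0.162 to 0.283 for donor and 0.052 to 0.526 for stroma). The edgeR test was tested on simulated data, with each gene drawn on its own. Changes were given only to genes above a minimum mean count, and shifts shared by many genes of a library were not simulated. For host against control the test recovered 97% of genes changed by a log2 of 1 among 13933 genes. The report gives the shares for stroma (25642 genes) and CD11b cells (14896 genes).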

Additional observations from a re-analysis of the deposited data

Results flagged for a closer look

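The Il1a level of host library N014, 2.34 TPM, lay far above the other 6 host libraries, of which the next was 1.5 TPM. The Casp1 level of transplanted stroma library N005, 21.46 TPM, lay far above the other 6, of which the next was 15.1 TPM. Of 45 sets of libraries examined for a value far from the others, these 2 had one, and chance gives about 1 in 20. The transplant difference of Il1rn was 1.57 higher on the log2 scale in stroma than in CD45.1 cells by a test of the difference itself (edgeR adjusted p = 0.0313), and over the alternatives it ran from 1.37 to 1.73. It did not pass in 4 of 17 alternatives: with the animal shared by both fractions as a random block (limma-voom adjusted p = 0.124) and, in edgeR, without transplanted stroma library N005 (0.0653), N014 (0.0573) or N204 (0.0546). The neutrophil genes had a median of 0.63 in that interaction and 0 of 12 passed in edgeR, and their part in the Il1rn value was not tested.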

How the results depend on the processing

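Of 126 results for single genes, 3018 values were computed under alternatives. Of these 2807 kept their direction and side of the threshold, 152 no longer passed, 15 passed where the reported value had not, and 44 had the other sign; none of the 44 passed, and none belonged to a result that had passed. The cause of these changes was not tested, except that single sexes and omitted libraries leave fewer samples.

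Host against control, 2312 genes passed as reported, 1263 with TPM plus 1, 1229 with TPM plus 0.1, 479 in males alone and 121 in females alone; 2 members passed as reported, 1 with the replicate block on day, and 0 in males and 0 in females alone. Donor against control, 3027 genes passed in males alone, and 4 members passed without the filter (Il1b and Il1rap in addition), 1 in males alone and 1 in females alone. Donor against host, 1928 genes passed as reported, 1146 with TPM plus 1, 1142 with TPM plus 0.1, 4605 with the replicate block on animal, 1136 in males alone and 450 in females alone; 3 members passed with that block. In stroma, 391 genes passed as reported, 750 with DESeq2, 250 with the day block, 125 in males alone and 0 in females alone. In CD11b cells, 291 genes passed with DESeq2, 59 without the filter, 2 with TPM plus 1 and 3 with TPM plus 0.1, and 1 member with DESeq2 and 1 without the filter. Without the filter 33112 genes passed between control stroma and marrow and 32643 between transplanted stroma and host cells. With the limma-voom animal block 0 members passed in the interaction of fraction and transplantation. With the day block Il1rap passed in donor against control (0.28, edgeR adjusted p = 0.00149) and Il1r1 no longer in host against control (0.46, 0.069). The blocks changed no other call of a member.

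Leaving out 1 library at a time gave 1527 to 2687 genes and 2 to 3 members for host against control, lowest without host N014. It gave 5730 to 6732 genes and 2 to 4 members for donor against control, and 1507 to 2554 genes and 0 to 1 member for donor against host. In stroma it gave 272 to 593 genes and 0 members, highest without N032, and in CD11b cells 0 to 28 genes and 0 members, highest without N187. It gave 15986 to 19947 genes and 9 members for control stroma against marrow, 15078 to 18588 genes and 6 to 7 members for transplanted stroma against host cells, and 524 to 1713 genes and 0 to 1 member for the interaction, highest without stroma N032.

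Members whose sign changed did not pass in either sign. When 1 library was left out, the log2 fold change of host over control ran from -0.18 to 0.04 for Il1a, -0.06 to 0.14 for Il18 and -0.01 to 0.11 for Il1rap. For donor over host it ran from -0.21 to 0.13 for Il1b, -0.27 to 0.02 for Il1rn and -0.10 to 0.23 for Il1r2. In stroma it ran from -0.20 to 0.05 for Il18, -0.07 to 0.22 for Il1rap and -0.13 to 0.48 for Nlrp3, and in CD11b cells from -0.27 to 0.14 for Il18 and -0.26 to 0.62 for Il1r1. With the day block Il1a was 0.00 in host cells, and Il18 was 0.15 and Nlrp3 -0.06 in stroma. In males alone Il1rap was -0.05 in host cells, Il1b 0.07 and Il1rn 0.04 for donor over host, and Il1r1 -0.06 and Il1rap -0.07 in stroma. In females alone Casp1 was -0.03 in donor cells, Il1r2 -0.05 for donor over host, and Il18 0.05 in stroma. With limma-voom Il1rap was -0.03 and Nlrp3 -0.15 in stroma. With TPM plus 1 and plus 0.1, in that order, stroma gave -0.01 and -0.02 for Il1b, -0.06 and -0.08 for Il1rap and -0.01 and -0.09 for Nlrp3, CD11b cells 0.06 and 0.06 for Casp1, and transplanted stroma over host cells -0.01 and -0.02 for Il1rn.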
